A study of Mus musculus with 9 samples.

Results

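Of the 49585 genes in the deposited tables, 35 form a set of cornified envelope and skin barrier lipid genes, named as a list and matched by symbol to the gene identifiers. They comprise 6 scaffold proteins of the envelope, 5 members of the filaggrin family, 3 secreted suprabasal proteins, 3 transglutaminases, 6 proteases and cystatins, and 12 enzymes and a transporter of barrier lipids counted together. All 35 were found, and 30 passed the filter on low values, which kept 15866 genes with at least 0.5 CPM (reads scaled to the total of the library) in at least 3 libraries.

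RNA had been measured in 9 libraries of basal cells from the prostate of C57BL/6J mice, sorted by flow cytometry and cultured as organoids for 5 days. The 3 groups of 3 libraries differed by medium. BM was the base medium, with EGF at 50 ng/ml, Noggin, a BMP antagonist, at 100 ng/ml, the TGF-β receptor inhibitor A83-01 at 200 nM, the ROCK inhibitor Y-27632 at 10 µM and N-acetylcysteine at 1.25 mM. R was BM with R-spondin1, a secreted protein that strengthens the response to Wnt ligands, at 500 ng/ml. RD7 was R with the androgen dihydrotestosterone (DHT) at 100 nM. All groups therefore shared the inhibitors and growth factors of BM, and no group received DHT without R-spondin1. Nothing in the labels ties replicates to different mice, sorts or cultures, so p-values measure the spread between these samples, which may be technical.

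The cornified envelope is the protein shell that replaces the plasma membrane of a terminally differentiated keratinocyte. Transglutaminases cross-link precursors such as involucrin, loricrin, periplakin and envoplakin beneath the membrane, and filaggrin-family proteins condense keratin within the cell. Ceramides with very long acyl chains are made by ceramide synthases, elongases and omega-hydroxylases, are oxidized by epidermal lipoxygenases, and are bound to the envelope, which seals the skin. The prostate is a glandular epithelium that does not normally cornify, although basal cells in culture can take on squamous features.

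The reads counted ranged from 6505859 in BM 1 to 24141017 in BM 2. Values are FPKM, reads scaled by the length of the gene and by the library total, which allows levels of different genes to be compared. Summed markers of basal cells stood at 7327 to 8209 FPKM in BM, 9916 to 10473 in R and 8466 to 9509 in RD7, sums carried by Krt5, Krt14 and Krt15. Of the 8 basal markers, 1, Krt15, was called higher and 0 lower in R against BM. In RD7 against R, 0 were called higher and 4 lower (Krt5, Trp63, Itga6 and Col17a1). In RD7 against BM 1, again Krt15, was higher and 5 were lower. Among the 5 was Itga6, from a mean of 46.7 FPKM in BM and 36.1 in R to 15.5 in RD7. Of all genes tested, 4.39% were called higher and 5.64% lower in R against BM. The shares were 13.4% and 17.7% in RD7 against R, and 21.6% and 25.4% in RD7 against BM. The 8 luminal markers summed to 2174 to 2715, 1704 to 2002 and 1811 to 2209 FPKM in BM, R and RD7. Of these 8, 0 were called higher and 4 lower in R against BM. In RD7 against R 5 were called higher and 2 lower, and in RD7 against BM 4 higher and 2 lower. Of 10 mesenchymal markers, 6 stood below 0.5 FPKM in all groups. The sum of the 10 was 18.6 to 26.9 FPKM in BM, 24.6 to 30.6 in R and 67.3 to 95.0 in RD7, mostly through Dcn at a mean of 76.6 FPKM. Of the 9 mesenchymal markers tested, 1 was called higher and 5 lower in RD7 against R. In RD7 against BM, 1 was called higher and 4 lower. The 6 urothelial markers summed to 209 to 317 FPKM in BM, 37.9 to 45.7 in R and 21 to 25.4 in RD7. The 10 leukocyte markers summed to at most 10.0 FPKM, endothelial and neuroendocrine markers to at most 0.814, and the hair follicle markers to at most 0.212, with Krt71 at 0 throughout. The part of these other cell types in the results was not tested, and in bulk RNA fewer cells of a type and less RNA per cell cannot be told apart.

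In R against BM, called members were higher. Of the 30 members tested, 19 rose and 0 fell, and 11 did not pass the threshold. That is 63.3% of members higher, against 4.39% of all genes tested that were called higher and 5.64% called lower. In limma, 0 members were also lower at an unadjusted p of 0.05, and limma-voom on reads called 0 lower. The median log2 fold change of the members was 0.99, beside 0.02 over all genes. The 3 R libraries all lay above the 3 BM libraries for 21 members, against 15.9% of all genes, and all below for 0 members, against 14.4%. These calls and those that follow are from limma on log2(FPKM + 0.5) with Benjamini-Hochberg adjustment, and log2 fold changes are on that scale, which understates the change of low genes.

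With DHT added, in RD7 against R, 16 members fell and 3 rose, and 11 were not called. Lower calls took 53.3% of members and 17.7% of all genes, and higher calls took 10.0% of members and 13.4% of all genes. The members' median log2 fold change was -0.44, and that of all genes was -0.09. Over all genes, the split was 2120 higher and 2816 lower, and it was 2532 higher and 2188 lower with median-of-ratios scaling, under which 16 members were still called lower. In RD7 against BM, 11 members rose (36.7%, against 21.6% of all genes) and 5 fell (16.7%, against 25.4%). Without overlap of their groups, 6 members were higher (21.7% of all genes) and 19 lower (30.1%) in RD7 against R, and 11 were higher (23.1%) and 6 lower (29.3%) in RD7 against BM. Every called member was among those whose groups did not overlap. Both comparisons with R use the same 3 R libraries, so a high or low value in R enters each.

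**Figure D1:**
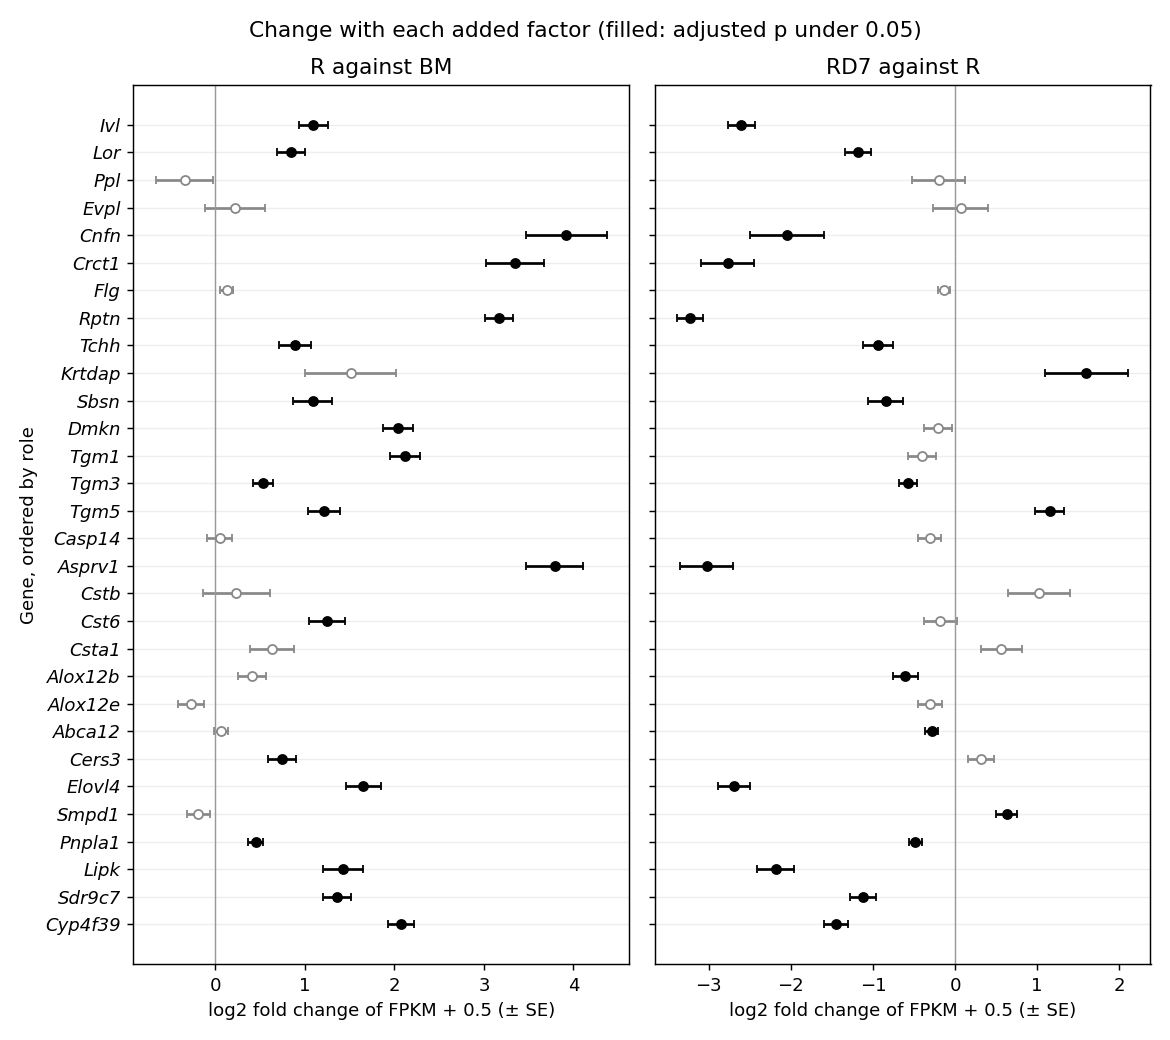
Log2 fold change on log2(FPKM + 0.5) with its standard error for the 30 members tested, in the comparisons R against BM (left) and RD7 against R (right); filled points are called at an adjusted p of 0.05. In R against BM 19 members are called higher and 0 lower, and in RD7 against R 3 are called higher and 16 lower.

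Read across the 3 media, the members fell into several patterns of calls. The most frequent pattern held 9 members, Lor, Crct1, Rptn, Tchh, Sbsn, Tgm3, Asprv1, Pnpla1 and Sdr9c7, which rose in R, fell in RD7 against R and were not called between RD7 and BM. Ivl, Elovl4 and Lipk rose in R and fell in RD7 to below their BM level, whereas Cnfn and Cyp4f39 fell in RD7 but stayed above BM. Dmkn, Tgm1, Cst6 and Cers3 rose in R, were not called between R and RD7, and were higher in RD7 than in BM. Tgm5 rose at both steps. Krtdap and Smpd1 rose only in the comparisons of RD7, in which they were called against both R and BM, and Cstb and Csta1 only in RD7 against BM. Abca12 fell against both other groups, Alox12b fell in RD7 against R, Alox12e fell in RD7 against BM, and Ppl, Evpl, Flg and Casp14 were called in no comparison. A pattern of calls is not a test that members differ from each other, and that difference was not tested.

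**Figure D2:**
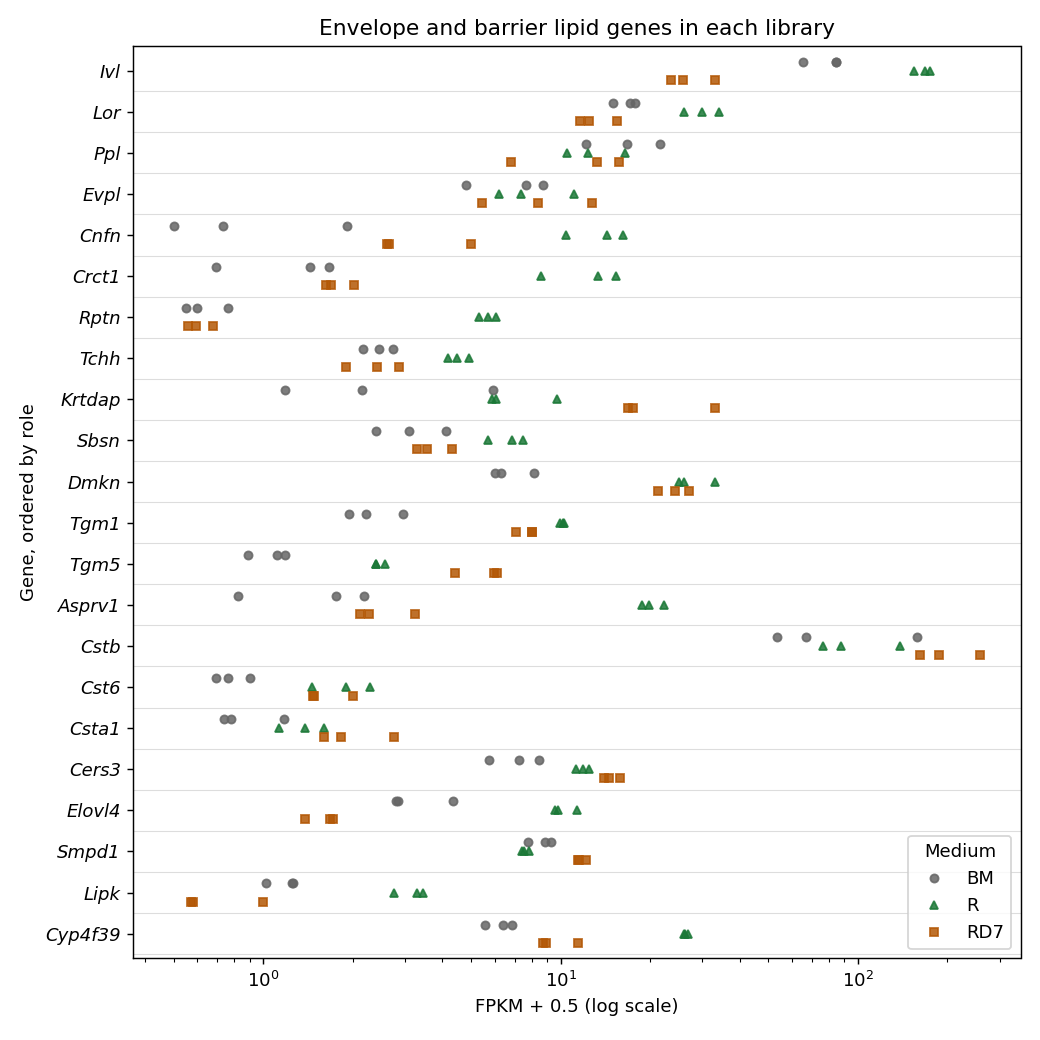
FPKM + 0.5 on a log axis in each of the 9 libraries for the 22 members with a mean of at least 1 FPKM in a group. Ivl and Cstb are the most abundant members, and the R points lie above the BM points for genes such as Rptn, Asprv1, Crct1 and Cnfn.

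Promoter sequence was examined because members that moved together could be set beside their start sites. RefSeq (GRCm38.p6) gave a window of 250 bases before to 50 bases after the start for 28 of the 35 members. On both strands, 6 motifs were searched. The AP-1 motif TGANTCA occurred in the windows of 9 members, Dmkn, Flg, Flg2, Ivl, Krtdap, Lipn, Lor, Rptn and Sbsn, and in 7.81% of all 32851 windows. The androgen receptor core motif AGAACA occurred in 6 members, Asprv1, Csta1, Elovl4, Ivl, Tgm1 and Tgm3, and in 19.0% of windows. The Krüppel-like factor motif GGGTGTG occurred in 5 members, Alox12b, Casp14, Cnfn, Ivl and Tgm3, and 7.95% of windows, the grainyhead-like motif AACCNGTT in 2 members, Rptn and Tgm5, and 2.09% of windows, and the TCF/LEF motif CTTTGAA in 1 member, Tchh, and 5.14% of windows. The C/EBP motif TTGCGCAA occurred in 0 members and in 0.183% of windows. A member counts if any of its windows matches, and some, such as Dmkn with 3, have several. The percentages are of single windows, so counts and percentages are not on the same basis. These matches are descriptions of the letters in the windows and do not show binding.

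Printed below are the 250 bases before the start of 7 members that the following results turn on, 5′ to 3′ on the strand of the gene, with matches to the motifs in capitals. Ivl, Lor, Rptn, Krtdap and Dmkn hold an AP-1 match 116, 48, 96, 81 and 89 bases before the start. Ivl, Asprv1 and Elovl4 hold an androgen receptor core match 36, 13 and 186 bases before it, Ivl also a Krüppel-like factor match at 148, and Rptn a grainyhead-like match at 197.
Ivl, chr3:92573736-92573985, minus strand: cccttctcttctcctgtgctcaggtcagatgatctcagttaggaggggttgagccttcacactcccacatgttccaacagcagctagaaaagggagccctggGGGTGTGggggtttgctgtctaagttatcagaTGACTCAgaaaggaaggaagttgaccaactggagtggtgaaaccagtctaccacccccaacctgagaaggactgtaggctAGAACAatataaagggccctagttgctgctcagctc
Lor, chr3:92083143-92083392, minus strand: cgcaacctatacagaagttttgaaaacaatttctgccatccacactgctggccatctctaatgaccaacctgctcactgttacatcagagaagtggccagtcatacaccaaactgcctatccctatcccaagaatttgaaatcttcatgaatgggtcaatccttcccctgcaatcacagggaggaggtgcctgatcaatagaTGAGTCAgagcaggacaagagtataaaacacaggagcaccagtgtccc
Rptn, chr3:93393449-93393698, plus strand: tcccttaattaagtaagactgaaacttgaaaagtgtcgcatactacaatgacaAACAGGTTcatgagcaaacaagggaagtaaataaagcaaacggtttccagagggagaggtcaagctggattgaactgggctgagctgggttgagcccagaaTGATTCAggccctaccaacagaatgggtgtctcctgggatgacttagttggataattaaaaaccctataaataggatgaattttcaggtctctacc
Krtdap, chr7:30787655-30787904, plus strand: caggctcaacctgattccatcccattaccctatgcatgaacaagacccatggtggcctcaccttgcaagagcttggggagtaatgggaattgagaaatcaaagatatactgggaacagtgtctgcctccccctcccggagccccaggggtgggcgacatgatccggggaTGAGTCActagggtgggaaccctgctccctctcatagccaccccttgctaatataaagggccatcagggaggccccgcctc
Dmkn, chr7:30763506-30763755, plus strand: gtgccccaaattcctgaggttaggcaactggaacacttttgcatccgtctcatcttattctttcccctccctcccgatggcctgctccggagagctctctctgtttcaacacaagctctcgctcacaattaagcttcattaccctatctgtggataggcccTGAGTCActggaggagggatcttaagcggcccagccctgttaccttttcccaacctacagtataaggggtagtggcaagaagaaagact
Asprv1, chr6:86627924-86628173, plus strand: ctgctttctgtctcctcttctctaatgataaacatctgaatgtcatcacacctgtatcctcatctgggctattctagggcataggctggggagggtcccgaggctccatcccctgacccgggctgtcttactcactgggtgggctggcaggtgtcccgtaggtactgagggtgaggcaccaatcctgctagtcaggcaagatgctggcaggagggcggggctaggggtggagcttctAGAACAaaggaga
Elovl4, chr9:83806306-83806555, minus strand: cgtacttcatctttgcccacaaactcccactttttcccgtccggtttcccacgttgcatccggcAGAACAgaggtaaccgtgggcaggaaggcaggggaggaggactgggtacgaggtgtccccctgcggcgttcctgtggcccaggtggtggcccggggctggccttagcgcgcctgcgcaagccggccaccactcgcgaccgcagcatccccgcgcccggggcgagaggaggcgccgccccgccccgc
Of the 7 tested members with an AP-1 match, 5 were called higher in R against BM and 4 lower in RD7 against R. For the androgen receptor core these counts were 5 and 4 of 6, and for the Krüppel-like factor motif 3 and 4 of 5. They were 2 and 1 of 2 for the grainyhead-like motif, and 1 and 1 of 1 for TCF/LEF. Over all 30 members tested, 19 and 16 were so called, and over all genes tested 4.39% and 17.7%. Whether a motif match goes with a call was not tested. Among the tested members with the letters TGAGTCA, Lor and Sbsn fell in RD7 against R, Krtdap rose and Dmkn was not called. The Krtdap call was lost in several other settings.

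Among the envelope scaffold genes, 4 of 6 rose in R and the same 4, Ivl, Lor, Cnfn and Crct1, fell in RD7 against R. These calls took 4.39% and 17.7% of all genes tested. Ivl (chr3:92570902-92573735, GRCm38) encodes involucrin, an early precursor to which barrier ceramides are attached. It stood at 64.8, 83.9 and 83.7 FPKM in BM 1 to 3, at 167, 174 and 154 in R 1 to 3 and at 25.3, 23.0 and 32.6 in RD7 1 to 3. The 3 groups did not overlap, with R highest and RD7 lowest. Mean Ivl was 2.13-fold higher in R than in BM, 6.11-fold lower in RD7 than in R and 2.87-fold lower in RD7 than in BM. The log2 fold changes were 1.09, -2.60 and -1.51 with a standard error (SE) of 0.16 each, and limma gave adjusted p-values of 0.0016, 1.3e-06 and 7.3e-05.

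Lor (chr3:92080271-92083142) encodes loricrin, the major envelope protein of the epidermis. Its FPKM was 14.5, 16.6 and 17.3 in BM, 29.3, 33.5 and 25.5 in R and 11.2, 12.0 and 15.0 in RD7. All R libraries lay above those of both other groups, while BM and RD7 overlapped. Lor rose by 0.84 ± 0.16 (log2, SE; adjusted p = 0.0061, limma) in R and fell by 1.18 (adjusted p = 2.9e-04) in RD7 against R; RD7 against BM was -0.34 (adjusted p = 0.093). With the trend of fold change on gene length removed, the last value was -0.64 and passed the threshold.

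Cnfn (chr7:25367620-25369724), which encodes cornifelin, an envelope component, was nearly silent in BM. Its values were 0, 0.230 and 1.42 FPKM in BM, 15.8, 9.93 and 13.9 in R and 2.10, 4.51 and 2.14 in RD7. The groups did not overlap, and RD7 lay between the others. Limma gave a log2 fold change of 3.92 (adjusted p = 3.0e-04) for R over BM, -2.05 (0.0070) for RD7 over R and 1.87 (0.0083) for RD7 over BM, with an SE of 0.45. The BM value rests on 24 reads over 3 libraries. With a pseudocount of 0.1 the change in RD7 against R was -2.20 and did not pass, with an adjusted p of 0.0528 in limma.

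Crct1 (chr3:93014205-93015687) encodes a cysteine-rich protein of the same chromosomal complex as Ivl. It was measured at 0.194, 0.941 and 1.16 FPKM in BM, 14.9, 8.09 and 12.8 in R and 1.13, 1.52 and 1.20 in RD7. R stood apart from the other groups, which overlapped. The mean was 15.6-fold higher in R than in BM and 9.31-fold lower in RD7 than in R, with log2 fold changes of 3.35 and -2.77 (SE 0.32; adjusted p = 8.7e-05 and 1.4e-04, limma).

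The plakins, which link keratin filaments to the desmosome and the nascent envelope, were not called. Ppl, periplakin, ranged from 6.30 to 21.1 FPKM and Evpl, envoplakin, from 4.31 to 12.2 over the 9 libraries, and their groups overlapped in each comparison. For R against BM the log2 fold changes were -0.34 ± 0.32 for Ppl and 0.22 ± 0.34 for Evpl (adjusted p = 0.51 and 0.70, limma). These SEs are about as large as the differences, so moderate changes were not detectable.

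**Figure D3:**
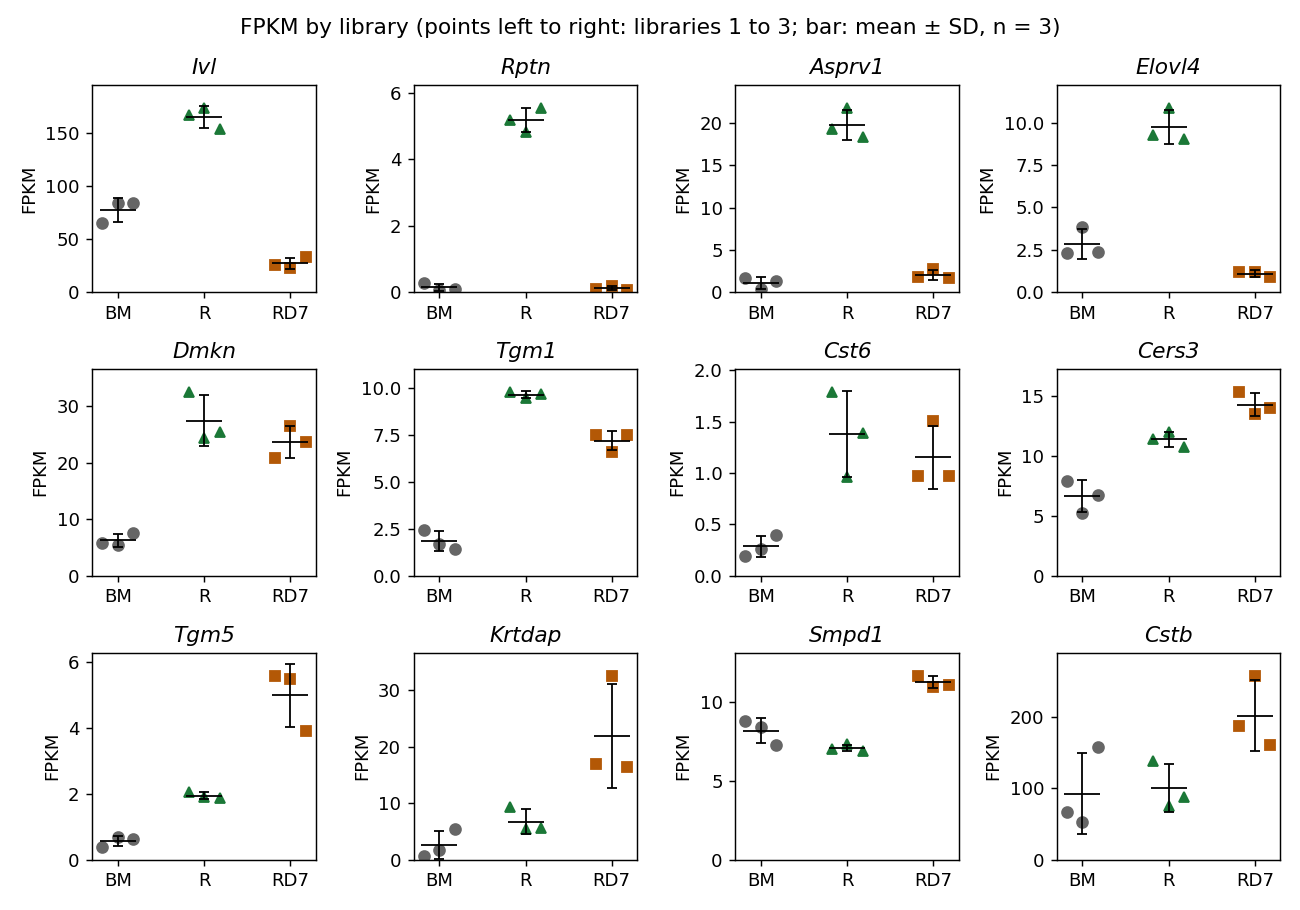
FPKM in each of the 9 libraries, with the mean and SD (n = 3) of BM, R and RD7, for 12 members. Ivl, Rptn, Asprv1 and Elovl4 are highest in R, Dmkn, Tgm1 and Cst6 are high in both R and RD7, and Tgm5, Krtdap, Smpd1 and Cstb have their highest mean in RD7.

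In the filaggrin family, 2 of the 3 members tested rose in R (4.39% of all genes). The same 2, Rptn and Tchh, fell in RD7 against R (17.7% of all genes). Rptn (chr3:93393699-93399442) encodes repetin, an S100-fused protein of the envelope. It stood at 0.260, 0.05 and 0.0984 FPKM in BM, at 5.18, 4.83 and 5.55 in R and at 0.0944, 0.177 and 0.0571 in RD7. Rptn was thus close to undetected in 6 libraries and near 5 FPKM in the 3 R libraries, from 20 reads over BM, 1307 over R and 25 over RD7. The mean was 38.2-fold higher in R than in BM and 47.4-fold lower in RD7 than in R. On log2(FPKM + 0.5) the changes were 3.17 and -3.23 (SE 0.16; adjusted p = 8.8e-07 and 2.3e-07, limma), and limma-voom on reads gave 5.74 and -5.59.

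Tchh (chr3:93442330-93449077) encodes trichohyalin, a keratin-binding protein of the hair follicle's inner root sheath and of filiform papillae. Its FPKM was 1.95, 2.23 and 1.66 in BM, 3.69, 3.97 and 4.41 in R and 1.92, 1.40 and 2.36 in RD7. R lay above the other groups, which overlapped. Limma gave 0.89 (adjusted p = 0.011) for R over BM and -0.93 (adjusted p = 0.0035) for RD7 over R, with an SE of 0.18.

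Filaggrin itself was barely expressed. Flg, whose product aggregates keratin and is degraded to the natural moisturizing factor, had 7 BM reads, all in BM 3, with 58 over R and 5 over RD7, and it was not called in limma on FPKM. On reads, limma-voom gave 3.58 ± 0.80 for R against BM (adjusted p = 0.014) and -3.11 for RD7 against R (adjusted p = 0.010). With the length trend removed, RD7 against BM was 0.41 (adjusted p = 0.028, limma). Before that correction it was -0.0041, from 7 BM and 5 RD7 reads, so it is not read as a change of Flg. RD7 against R was also called with no filter. The BM, R and RD7 totals were 2, 7 and 3 reads for Flg2 and 3, 2 and 7 for Hrnr, hornerin, and neither could be tested.

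Of these genes, 8 lie in the epidermal differentiation complex, the cluster of envelope genes on chromosome 3, between 92080271 and 93449077. Lor, Ivl, Crct1, Rptn and Tchh, 5 of the 6 tested there, rose in R and fell in RD7 against R, calls that took 4.39% and 17.7% of all genes. The remaining tested member, Flg, lies between Crct1 and Rptn, at a level where the pseudocount sets its fold change. In RD7 against BM 0 of the 6 were called higher and 1, Ivl, was called lower, where all genes tested gave 21.6% and 25.4%.

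**Figure D4:**
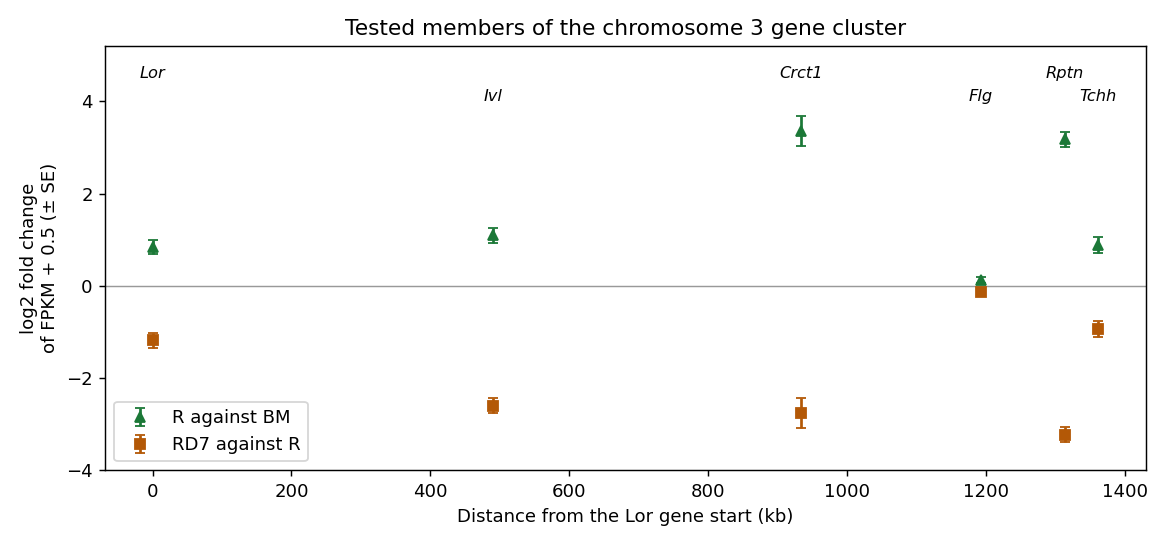
Log2 fold change with its standard error against distance in kb from the start of Lor for the 6 tested members of the chromosome 3 complex, in R against BM and in RD7 against R. Crct1 and Rptn show the largest changes of the 6 in both comparisons, and Flg, whose group means are at most 0.0523 FPKM, is held near 0 by the pseudocount of 0.5 whatever its change.

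The 3 secreted suprabasal proteins are neighbours on chromosome 7, and each had another pattern. Dmkn (chr7:30763756-30781063) encodes dermokine, secreted by the upper epidermal layers. It was at 5.82, 5.52 and 7.61 FPKM in BM, 32.6, 24.5 and 25.4 in R and 20.8, 26.6 and 23.7 in RD7. R and RD7 overlapped, and both lay above BM. The mean was 4.35-fold higher in R than in BM and 3.75-fold higher in RD7, with log2 fold changes of 2.04 and 1.83 (SE 0.17; adjusted p = 3.2e-05 and 2.6e-05, limma). RD7 against R was -0.21 (adjusted p = 0.38).

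Sbsn (chr7:30751471-30756134) encodes suprabasin, a transglutaminase substrate. Its values were 2.59, 1.9 and 3.63 FPKM in BM, 7.00, 5.18 and 6.34 in R and 2.79, 3.06 and 3.80 in RD7. R lay above both other groups. The change was 1.09 ± 0.21 in R against BM (adjusted p = 0.0093, limma) and -0.84 in RD7 against R (adjusted p = 0.015). Without R 1 these adjusted p-values were 0.0501 and 0.0562, and without R 3 the latter was 0.0504. Sbsn shares 7.70% of its exon bases with Tmem147os on the same strand, so some reads may belong to either gene.

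Krtdap (chr7:30787896-30791097) encodes keratinocyte differentiation-associated protein, a small secreted peptide. It stood at 0.679, 1.65 and 5.41 FPKM in BM, at 9.23, 5.38 and 5.58 in R and at 17.0, 32.5 and 16.3 in RD7. All RD7 libraries lay above all R libraries, and BM 3 reached the level of R. Krtdap rose by 1.60 ± 0.51 in RD7 against R (adjusted p = 0.036, limma) and by 3.11 in RD7 against BM (adjusted p = 0.0012), an 8.51-fold difference of means; R against BM was 1.51 (adjusted p = 0.095) and 2.14 (adjusted p = 0.0028) without BM 3. The call in RD7 against R was lost in limma without R 2 (adjusted p = 0.109), R 3 (0.105), RD7 1 (0.0518), RD7 2 (0.133) or RD7 3 (0.0643) and with a pseudocount of 0.1 (0.055), no filter (0.090) or a filter of 0.1 FPKM (0.0501). With the length trend removed it was 1.34 (adjusted p = 0.024).

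All 3 transglutaminases rose in R against BM, a call that took 4.39% of all genes tested. Tgm1 (chr14:55700009-55713926), the membrane-bound enzyme that cross-links the envelope, was at 2.45, 1.71 and 1.44 FPKM in BM, 9.80, 9.44 and 9.68 in R and 7.49, 6.60 and 7.50 in RD7. The groups did not overlap, with RD7 between BM and R and nearer to R. Its mean was 5.16-fold higher in R than in BM and 3.85-fold higher in RD7 than in BM, with log2 fold changes of 2.12 and 1.72 (SE 0.17; adjusted p = 2.3e-05 and 3.8e-05, limma). RD7 against R was -0.40 (adjusted p = 0.098), and it passed in limma with only those groups fitted (0.0319) and without BM 1 (0.0461).

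Tgm5 (chr2:121046111-121085841), the transglutaminase affected in acral peeling skin, was at 0.390, 0.683 and 0.614 FPKM in BM, 2.07, 1.89 and 1.89 in R and 5.60, 5.49 and 3.90 in RD7. Its groups did not overlap, and its level rose with each addition to the medium. Limma gave a log2 fold change of 1.21 (adjusted p = 0.0015) for R over BM, 1.15 (8.6e-04) for RD7 over R and 2.37 (5.7e-06) for RD7 over BM, each with an SE of 0.18. The RD7 mean was 8.89-fold that of BM. Tgm3, the enzyme of the later envelope and hair shaft, rested on 4, 73 and 6 reads over BM, R and RD7, and was called in R against BM (0.54 ± 0.11, adjusted p = 0.012, limma) and in RD7 against R (-0.57, adjusted p = 0.0037).

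Among proteases and cystatins, 2 of 5 tested rose in R against BM, 1 fell in RD7 against R and 3 rose in RD7 against BM. Over all genes tested, these calls took 4.39%, 17.7% and 21.6%. Asprv1 (chr6:86628164-86629710) encodes the retroviral-like aspartic protease that processes profilaggrin. It stood at 1.69, 0.321 and 1.25 FPKM in BM, at 19.3, 21.8 and 18.3 in R and at 1.77, 2.74 and 1.61 in RD7. The R libraries stood apart, and BM and RD7 overlapped at the values 1.69 and 1.61. The mean was 18.2-fold higher in R than in BM and 9.71-fold lower in RD7 than in R, with log2 fold changes of 3.79 and -3.02 (SE 0.32; adjusted p = 4.0e-05 and 7.4e-05, limma). RD7 against BM was 0.77 (adjusted p = 0.074), and it passed at 1.06 without BM 1 (adjusted p = 0.032) and at 1.42 with limma-voom (0.036). Over the same 3 R libraries Flg, which encodes its known substrate, had 58 reads in all.

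Cst6 (chr19:5344705-5349574) encodes cystatin M/E, an inhibitor of the proteases that act on transglutaminases. It was at 0.195, 0.262 and 0.400 FPKM in BM, 1.79, 0.958 and 1.39 in R and 0.976, 1.51 and 0.974 in RD7. R and RD7 overlapped above BM. The log2 fold changes were 1.24 in R against BM and 1.07 in RD7 against BM (SE 0.20; adjusted p = 0.0029 and 0.0027, limma), and RD7 against R was -0.18 (0.53).

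Cstb and Csta1, stefins that inhibit cathepsins in the cytosol and are cross-linked into the envelope, were called only in RD7 against BM. Cstb (chr10:78425669-78427622) was abundant, at 66.5, 53.0 and 157 FPKM in BM, 138, 75.7 and 87.0 in R and 186, 257 and 161 in RD7. RD7 lay above the other groups, which overlapped. The change in RD7 against BM was 1.26 ± 0.38 (adjusted p = 0.021, limma), and it was not called without BM 1, BM 2 or RD7 2 or with no filter on low values. RD7 against R was 1.02 (adjusted p = 0.063), and with the length trend removed it was 0.76 and passed (0.045), while RD7 against BM was 0.82 (0.026). The former also passed without BM 2, BM 3 or R 1, with median-of-ratios scaling, with limma-voom and with only those groups fitted. Csta1 had a mean of 0.398 FPKM in BM, 0.872 in R and 1.56 in RD7, and RD7 against BM was 1.19 ± 0.25 (adjusted p = 0.0043, limma), and R against BM was called on leaving out BM 3.

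Casp14, the caspase of cornification, was at 0.559 to 1.07 FPKM over all 9 libraries and was called in no comparison, although it passed in RD7 against BM with the length trend removed. Stfa1 had totals of 1, 1 and 2 reads over the groups and was not tested.

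Among the 10 tested barrier lipid genes, 6 rose in R against BM, and 7 fell and 1 rose in RD7 against R. Over all genes tested, these calls took 4.39%, 17.7% and 13.4%. Cyp4f39 (chr17:32452723-32493320), the mouse counterpart of the omega-hydroxylase of ultra-long fatty acids, had the highest R mean of the lipid members. It was at 6.34, 5.91 and 5.07 FPKM in BM, 25.7, 26.3 and 25.6 in R and 8.42, 8.22 and 11.0 in RD7. The groups did not overlap, with R highest. Limma gave a log2 fold change of 2.08 (adjusted p = 1.1e-05) for R over BM, -1.45 (4.7e-05) for RD7 over R and 0.62 (0.0077) for RD7 over BM, with an SE of 0.15. With the length trend removed the last value was 0.27 and was not called (adjusted p = 0.25, limma).

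Elovl4 (chr9:83778692-83806277), the elongase that makes the ultra-long acyl chains on which that hydroxylase acts, was at 2.29, 3.85 and 2.34 FPKM in BM, 9.30, 10.9 and 9.06 in R and 1.18, 1.21 and 0.880 in RD7. Its groups did not overlap, and like Ivl it was highest in R and lowest in RD7. The mean was 3.45-fold higher in R than in BM and 8.93-fold lower in RD7 than in R. The log2 fold changes were 1.65, -2.69 and, for RD7 against BM, -1.04 (SE 0.20; adjusted p = 4.1e-04, 4.7e-06 and 0.0027, limma).

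Cers3 (chr7:66743504-66823691), the ceramide synthase that uses those chains, had another course. It was at 7.93, 5.25 and 6.77 FPKM in BM, 11.4, 12.0 and 10.7 in R and 15.3, 13.5 and 14.0 in RD7. The groups did not overlap and RD7 was highest. The change was 0.75 ± 0.16 in R against BM (adjusted p = 0.012, limma), a call lost on leaving out R 1 (0.0562) or R 2 (0.0630), and 1.06 in RD7 against BM (5.9e-04); RD7 against R was 0.31 (0.15).

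Smpd1 (chr7:105554360-105558389), acid sphingomyelinase, which releases ceramide from sphingomyelin, was at 8.80, 8.39 and 7.26 FPKM in BM, 7.00, 7.31 and 6.89 in R and 11.6, 10.9 and 11.0 in RD7. RD7 lay above the other groups, which overlapped. It rose by 0.63 ± 0.13 in RD7 against R (adjusted p = 0.0043, limma) and by 0.44 in RD7 against BM (0.018), and the latter was not called with only those groups fitted (0.0577).

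Lipk (chr19:34008290-34047835), an epidermal lipase, was at 0.755, 0.518 and 0.751 FPKM in BM, 2.94, 2.25 and 2.78 in R and 0.499, 0.0701 and 0.0793 in RD7. All 3 groups were separate, with R highest and RD7 lowest. Limma gave a log2 fold change of 1.43 (adjusted p = 0.0022) for R over BM, -2.18 (5.3e-05) for RD7 over R and -0.76 (0.019) for RD7 over BM, with an SE of 0.22. The last was not called without BM 1, RD7 2 or RD7 3 (adjusted p = 0.060, 0.076 and 0.076, limma).

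The other lipid members stood below 1 FPKM in each group mean. Sdr9c7, a dehydrogenase that acts on the oxidized linoleate of ceramides, was clearest, at 0.0336 to 0.152 FPKM in BM, 0.866 to 1.08 in R and 0.0736 to 0.345 in RD7. It rose by 1.36 ± 0.15 in R and fell by 1.12 in RD7 against R (adjusted p = 2.8e-04 and 4.0e-04, limma). Pnpla1, the transacylase of acylceramide synthesis, had totals of 2, 57 and 1 reads over BM, R and RD7, and the ratio of CPM in R to that in BM was 23.5, with a 95% exact interval from 6.22 to 199. The ratio of R to RD7 was 50.5 (8.70 to 2028), and both intervals cover counting error only. Limma called Pnpla1 in both (0.45, adjusted p = 0.0062, and -0.48, 0.0019), but it shares 13.3% of its exon bases with the antisense gene Pnpla1os, and the libraries do not mark strand.

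The epidermal lipoxygenases were sparse. Alox12b, which oxidizes the linoleate of acylceramides, had 4 BM reads, all in BM 1, with 39 over R and 0 over RD7. RD7 was at least 11.5-fold lower than R, taking 3 reads over the group as the floor, and the log2 fold change was -0.61 (adjusted p = 0.014, limma; 0.0523 without R 2). R against BM was 0.41 and was called when BM 1 was left out. Aloxe3, which acts on the product of Alox12b, had 7, 21 and 15 reads and was not tested. Alox12e, a further epidermal lipoxygenase, had 60, 43 and 15 reads and fell by 0.57 in RD7 against BM (adjusted p = 0.011, limma).

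Abca12, the lipid transporter of lamellar granules, had 70, 110 and 9 reads over BM, R and RD7. It fell by 0.28 in RD7 against R and by 0.22 in RD7 against BM (adjusted p = 0.022 and 0.042, limma). The first was lost without R 1, R 3 or RD7 2 (adjusted p = 0.058, 0.084 and 0.063, limma), with a filter of 0.1 FPKM (0.056) and with the length trend removed (-0.11). The last was lost without any library in turn (0.054 to 0.105), with a pseudocount of 1, the same filter or only those groups fitted, and changed sign to 0.19 with the length trend removed. On reads, limma-voom gave -3.86 and -3.50 (0.0018 and 0.0033). Lipn, an epidermal lipase beside Lipk, had 8, 18 and 0 reads, at least 5.31-fold lower in RD7 than in R by the same floor, and was not tested.

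Fold change varied with transcript length in these libraries. Across the 15866 genes tested, the Spearman correlation of log2 fold change with length was -0.33 in R against BM, -0.22 in RD7 against R and -0.38 in RD7 against BM. Genes are not independent replicates, and the values describe the libraries. The short members Krtdap (679 bases) and Cstb (599 bases) were highest within their groups in BM 3, R 1 and RD7 2, and the long member Evpl (6384 bases) was lowest in BM 3 and RD7 2 of theirs. In those 3 libraries, short genes in general stood higher than in the others of their group (Spearman -0.45, -0.31 and -0.38).

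Other genes of the pathway were taken from 4 lists that hold no member. Of 106 genes, 103 were found and 73 tested. In R against BM 16 rose (21.9%, against 4.39% of all genes) and 5 fell (6.85%, against 5.64%). In RD7 against R 13 rose (17.8%, against 13.4%) and 22 fell (30.1%, against 17.7%), and in RD7 against BM 24 rose (32.9%, against 21.6%) and 14 fell (19.2%, against 25.4%). The falls in R and the rises in RD7 against R were thus near the share over all genes. The 5 that fell in R numbered 3 without BM 1, 2 without R 1 and 3 without R 3.

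Of 15 other envelope and keratohyalin genes tested, 5 rose (33.3%) and 2 fell (13.3%) in R, and 1 rose (6.67%) and 8 fell (53.3%) in RD7 against R. Crnn, cornulin, a filaggrin-family protein of squamous mucosa, was 6.35 ± 1.69 FPKM (SD, n = 3) in BM, 66.6 ± 5.92 in R and 7.35 ± 1.67 in RD7. Its changes of 3.32 and -3.12 (adjusted p = 6.3e-06 and 3.0e-06, limma) were alike in direction to those of Rptn. Kprp, the keratinocyte proline-rich protein, and Lce3f, a late envelope protein listed at 0 in all 3 BM libraries, reached 1.31 ± 0.226 and 1.62 ± 0.559 FPKM in R and also fell in RD7 (-1.74 and -1.90). Nccrp1 rose from 0.845 ± 0.233 to 15.7 ± 1.66 FPKM in R and stood at 11.1 ± 4.52 in RD7. Scel, sciellin, an envelope precursor, fell in RD7 against R by 1.55 (adjusted p = 4.1e-04, limma).

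Among 2 other stefin and cystatin genes tested, Cst3, cystatin C, rose from 36.9 ± 8.64 FPKM in R to 122 ± 15.8 in RD7 (1.72, adjusted p = 0.0022, limma). BC100530, a stefin A family gene whose copies are near-identical, was called higher in R (adjusted p = 0.041, limma) but not in 12 of the other settings.

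Of 27 other barrier lipid genes tested, 3 rose (11.1%) and 2 fell (7.41%) in R, and 6 rose and 6 fell (22.2% each) in RD7 against R, where all genes gave 13.4% and 17.7%. Ephx3, an epoxide hydrolase that acts after the lipoxygenases, rose from 0.689 ± 0.154 to 5.96 ± 0.588 FPKM in R and fell to 3.25 ± 0.142 in RD7. Sult2b1, the cholesterol sulfotransferase, rose by 1.10 in R (adjusted p = 0.013, limma), a call lost when BM 1, R 1 or R 2 was left out. Sptlc3, a subunit of serine palmitoyltransferase, and Fa2h, the fatty acid 2-hydroxylase, fell in RD7 against R by 1.78 and 1.45, and Cers4, a ceramide synthase, and Alox15, a lipoxygenase, rose by 1.61 and 1.73. Degs1, the dihydroceramide desaturase, was 58.0, 38.5 and 79.5 FPKM on average in BM, R and RD7, and its fall in R (-0.58, adjusted p = 0.016, limma) was lost without R 1 or R 3. Smpd3 fell by 0.64 in R (adjusted p = 0.036, limma), a call lost without each BM or R library other than BM 3 and without RD7 3. It was also lost with a pseudocount of 0.1, no filter, a filter of 0.1 FPKM or limma-voom.

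Of 29 tested regulators of terminal differentiation, 7 rose (24.1%) and 1 fell (3.45%) in R, and 5 rose (17.2%) and 8 fell (27.6%) in RD7 against R. Hopx, a homeodomain protein, rose at both steps, from 7.19 ± 3.30 FPKM in BM to 24.0 ± 3.45 in R and 98.0 ± 10.7 in RD7, as Tgm5 did among the members. Klf4, a factor of late epidermal differentiation, rose from 5.21 ± 0.626 to 16.1 ± 0.322 in R (1.54, adjusted p = 8.5e-05, limma); its rise to 23.6 ± 3.68 in RD7 was lost without any 1 of R 1, R 2, R 3, RD7 2 or RD7 3. Elf5, an ETS factor, rose and fell, at 0.565 ± 0.247, 2.12 ± 0.290 and 0.364 ± 0.0744 FPKM. Pparg, a nuclear receptor of lipid metabolism, fell at both steps, from 15.2 ± 1.41 to 5.93 ± 0.307 and 2.42 ± 0.356. Ahr, the aryl hydrocarbon receptor, fell by 1.59 in RD7 against R (adjusted p = 0.0014, limma).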

How the data were processed

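The deposited values are FPKM for each gene in 9 libraries. Per the labels' protocols, cDNA came from a SMART-Seq kit that keeps no strand information. Per the submitters' processing notes, the build was GRCm38 and the tools were STAR 2.6.1a, featureCounts, CASAVA 1.9 and edgeR 3.24.1; their roles, the annotation release and filters are not given in the sources used here. Symbols and coordinates are from GENCODE M21 (49326 of 49585 genes). Reads were read back from FPKM, gene length and library total, covering at least 99.979% of each library. For 3837 genes the annotated length did not give whole reads, and the smallest length that did was used. Read totals of sparse genes among them may be too low, such as Flg2 (7672 bases used, 20803 annotated) and Stfa1 (416 and 710). The members, lists and tests were chosen with earlier results of these data known. The 15866 genes reaching 0.5 CPM in 3 or more libraries entered a fit of log2(FPKM + 0.5) by limma 3.58.1 in R 4.3.3 (1 mean per group over 9 libraries, 6 residual degrees of freedom, variance trend, robust, two-sided), tested first on simulated data. A count model had been planned and was replaced, since the deposited unit is FPKM. Calls have a Benjamini-Hochberg adjusted p of at most 0.05. Values in every library are given for the 18 called members (on adding R-spondin1 or DHT) with a mean of at least 1 FPKM, and for Cstb; of each other list, up to 4 called genes with the largest change per comparison are named, and 1 gene that meets this rule is not reported here. A count of 0 allows 3 reads, 0.461 CPM in BM 1 and at most 0.188 elsewhere; such floors cover counting error only. Fold values are ratios of mean FPKM. Alternatives were the pseudocount, filter, scaling, limma-voom, a loess correction for length, a replicate block, the groups fitted, and leaving out each library.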

Additional observations from a re-analysis of the deposited data

How the results depend on the processing

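Across 18 alternative settings, 17 of the 19 member calls in R against BM, 14 of 19 in RD7 against R and 11 of 16 in RD7 against BM were kept throughout. Leaving out 1 library at a time gave 17 to 21 members higher in R against BM, 2 to 4 higher and 14 to 17 lower in RD7 against R, and 10 to 11 higher and 3 to 4 lower in RD7 against BM. The 5 members lower in RD7 against BM became 3 without BM 1, RD7 2 or RD7 3. For the other pathway genes, 2 to 6 were lower in R against BM when a library was left out, against 5 with all. Other settings gave 19 to 20 members higher in R, and 15 to 18 lower in RD7 against R. Under other settings, the 18 fully described members had 972 values. Of these, 946 were counted as unchanged, 20 lost the call, 6 gained it and 0 called values reversed direction. Values not called counted as unchanged even where their sign changed, as for Rptn in RD7 against BM (-0.05, and 0.15 with limma-voom). A replicate block gave 19 members higher in R against BM, 2 higher and 16 lower in RD7 against R, and 11 higher and 4 lower in RD7 against BM; with it, calls were lost for Krtdap (adjusted p = 0.062, limma), Klf4 (0.0523) and Grhl3 (0.068) in RD7 against R, Abca12 in RD7 against BM (0.072), and Degs1 (0.0521) and BC100530 (0.083) in R against BM. Equal replicate numbers did not deviate together (correlations from -0.52 to 0.27 over 9 pairs; 0 libraries correlated best with their own number), so the numbers are not treated as a pairing. Over all genes, R against BM gave 696 higher calls, 2089 without BM 3 and 368 without R 1; the cause was not tested. Members at a few reads, such as Pnpla1, Flg and Abca12, are limited by depth, least deep in BM 1.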

Other observations

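Grhl3 and Ovol1, transcription factors of epidermal differentiation, fall outside the rule for named genes and were chosen after their values were seen. Grhl3 was at 7.61, 9.13 and 8.08 FPKM in BM, 19.2, 22 and 19.8 in R and 16.7, 15.1 and 13.1 in RD7. It rose by 1.25 ± 0.14 (log2, SE) in R against BM (adjusted p = 2.3e-04, limma), and its fall of 0.43 in RD7 against R (adjusted p = 0.037) was lost in 9 of 18 other settings. Ovol1 was at 6.41, 6.08 and 5.94 FPKM in BM, 12.5, 13.5 and 12.7 in R and 6.94, 7.80 and 6.10 in RD7. All R libraries lay above both other groups, and limma gave 1.01 (adjusted p = 7.4e-04) for R against BM and -0.85 (adjusted p = 9.0e-04) for RD7 against R.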
